A study of Mus musculus with 4 samples.

Results

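The reproductive neuropeptide and prolactin genes were 8 genes chosen by name: Gnrh1, Kiss1, Kiss1r, Tac2, Tacr3, Npvf, Prlh and Prlr. Every probe set whose first listed gene symbol was one of these names was taken, which gave 9 of the 35474 probe sets on the array, 1 for each gene and a pair for Prlr. The data are signals of Affymetrix arrays hybridised with total RNA of the hypothalamus of male mice aged 12 weeks. The 2 control arrays came from wild-type mice. The 2 ΔFosB arrays came from mice whose genotype the labels spell ENOI2DeltaFosB and the series title ENO2DeltaFosB, and no treatment was given to either group. ΔFosB is a truncated FosB protein that binds DNA as part of AP-1 complexes, and Eno2 encodes neuron-specific enolase. The labels give no strain, no founder line and no description of the construct, and nothing in them says whether an array held 1 animal or a pool. P-values therefore measure only the spread between these 4 arrays, which may be technical.

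The gonadotropin-releasing hormone made from Gnrh1 is released by scattered hypothalamic neurons and drives the pituitary to secrete luteinising and follicle-stimulating hormone. Kisspeptin, the product of Kiss1, excites these neurons through its receptor Kiss1r. Many kisspeptin neurons of the arcuate nucleus also make neurokinin B, the product of Tac2, which acts back on them through its receptor Tacr3, and dynorphin, the product of Pdyn, which restrains them. Npvf encodes the RFamide-related peptides, which affect gonadotropin secretion through the receptor Npffr1. Prolactin reaches the brain from the pituitary and binds Prlr, a receptor without enzyme activity of its own that signals through the kinase Jak2 and the factor Stat5. Prlh encodes prolactin-releasing peptide, whose receptor is Prlhr.

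The arrays had been scaled to a common level, with summed signals of 68636594 to 68961786, and their number limits the precision. Signals under 831, the 95th percentile of 1216 probe sets of olfactory and vomeronasal receptors, are called the receptor range here and are taken as a measure of background. Fosb, the gene of the transgene's product, read 1377 and 1220 on control arrays A and B, and 1579 and 2189 on ΔFosB arrays A and B, a log2 difference of 0.52 (SE 0.14, limma adjusted p = 0.0389) whose call ended without control A, control B or ΔFosB B (adjusted p = 0.0853, 0.147 and 0.0684). Where this probe set lies relative to the transgene was not analysed here. Of 14 defining genes of the hypothalamus 11 lay above the receptor range on every array, while Agrp and Crh lay within it on all 4. The summed signal of that list was 25967 and 37282 on control arrays A and B, and 63316 and 63742 on ΔFosB arrays A and B. The list of midbrain dopamine neuron genes went the other way, with 37801 to 45336 on control and 13816 to 14532 on ΔFosB arrays. Of its 8 genes 6 passed as lower in limma and 2 did not pass. These 2 were Pitx3, higher on both ΔFosB arrays, and En1, lower on both. Oligodendrocyte and myelin genes summed to 106992 to 109397 on control and 76522 to 80843 on ΔFosB arrays. The part of these shifts in the results on single genes was not tested. In such bulk samples fewer cells of a type in the tissue taken and less RNA per cell cannot be told apart. Some regional markers also differed between arrays of the same group. Hcrt read 2557 and 7256 on control arrays A and B, and 9467 and 9525 on ΔFosB arrays A and B. Prkcd, of the thalamus list, read 7117 and 3137 on control arrays A and B, and 3614 and 928 on ΔFosB arrays A and B. The cause of these spreads was not tested.

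**Figure D1:**
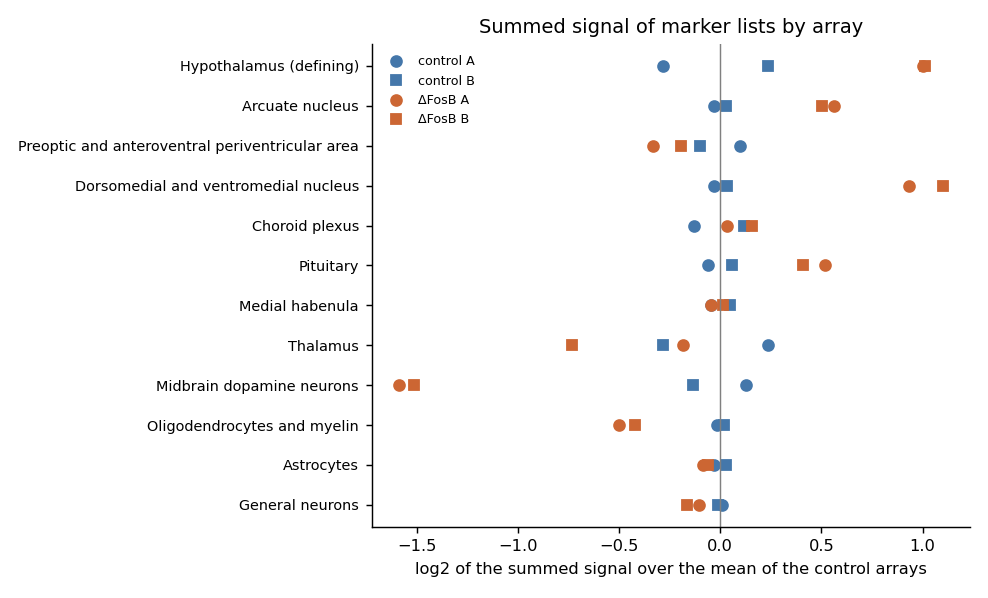
Summed signal of each list of marker genes on each array, as the log2 ratio to the mean of the control arrays (horizontal axis). Blue symbols are control arrays and orange symbols ΔFosB arrays, with circles for array A and squares for array B. The hypothalamus, arcuate, dorsomedial and ventromedial, and pituitary lists lie higher on both ΔFosB arrays, and the midbrain dopamine and myelin lists lower. The preoptic, general neuron and astrocyte lists are also lower on both, by less. For the choroid plexus, habenula and thalamus lists the groups overlap, and the thalamus list differs widely between arrays A and B of each group.

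The genotypes were compared gene by gene, to find which of these transcripts differed in the hypothalamus. The neurokinin B gene Tac2 and the prolactin receptor gene Prlr rose on the ΔFosB arrays, by 1.54-fold and 1.66-fold. Gnrh1, Npvf and Prlh had higher signals on both ΔFosB arrays than on either control array, by 1.218-fold, 1.249-fold and 1.134-fold, and did not pass the test. The receptors of kisspeptin and neurokinin B had fold changes of 0.973 (Kiss1r) and 1.002 (Tacr3). In limma's moderated test with Benjamini-Hochberg adjustment over 14520 genes and a threshold of 0.05, 2 of the 7 genes tested rose, 0 fell and 5 did not pass. Of all genes tested 13.1% passed, made up of 6.18% higher and 6.91% lower on the ΔFosB arrays. Higher calls of at least 1.5-fold, the class that holds Tac2 and Prlr, made up 0.544% of all genes. That cut was not part of the planned test and lies just under the fold change of Tac2, so this share only describes the class. At an unadjusted p under 0.05 there were 5 of the 7, against 30.5% of all genes. The control and ΔFosB signals were fully separated in 6 of the 7 genes, 5 with ΔFosB higher and 1 with ΔFosB lower, against 60.3% of all genes tested (34.7% higher and 25.6% lower). Separation was thus common across the array. The median log2 fold change was 0.28 in the 7 genes and 0.02 in all genes tested. That median is the value of Gnrh1, whose control signals were dim, and it was 0.18 with Gnrh1 and Prlr at their lower bounds.

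**Figure D2:**
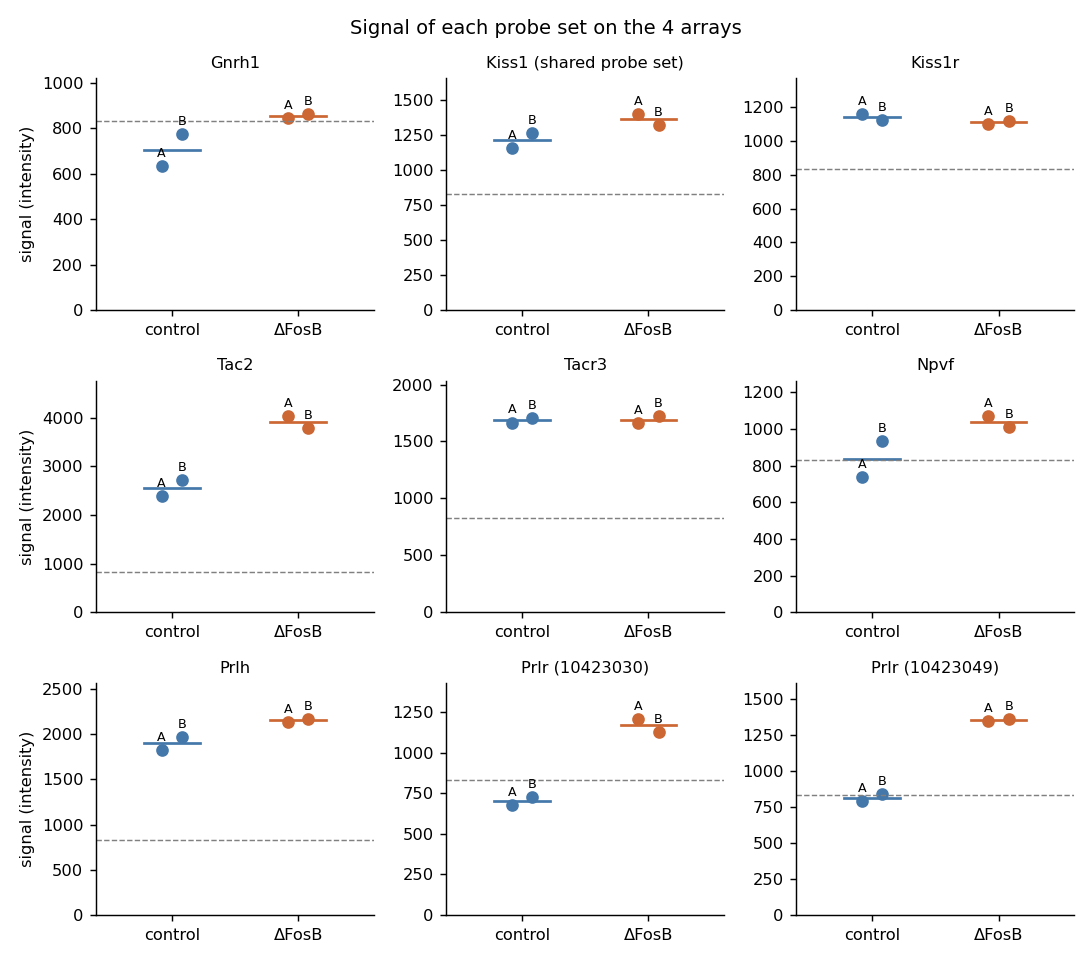
Signal of each of the 9 probe sets (vertical axis, linear intensity from 0) on the control (blue) and ΔFosB (orange) arrays, labelled A and B, with bars at the group means. The dashed line is 831, the upper edge of the receptor range. Tac2 and both Prlr probe sets show the widest gaps between the groups, and the groups overlap for Tacr3.

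Tac2 encodes the precursor of neurokinin B, a tachykinin that sets the pace of the kisspeptin neurons of the arcuate nucleus. Its signals were 2383 and 2722 on control arrays A and B, and 4030 and 3794 on ΔFosB arrays A and B. Every one of these lay far above the receptor range, and the lower ΔFosB array exceeded the higher control array by more than the arrays of either group differed. The group means were 2553 ± 239 and 3912 ± 167 (mean ± SD, n = 2), and the log2 fold change was 0.62 (SE 0.07, 95% interval 0.45 to 0.79, limma adjusted p = 0.00137). The call held without each array in turn, with log2 fold changes of 0.52 to 0.71 and adjusted p-values of 0.000667 to 0.00837. The arcuate marker list of 7 genes moved the same way. It summed to 8551 to 8896 on control and 12384 to 12863 on ΔFosB arrays. Of its 6 tested genes 4 rose, 0 fell and 2 did not pass. These 2 were Cartpt and Agrp, the latter in the receptor range on all arrays. The largest gains were those of Npy, from 1936 and 1940 to 3821 and 3639.5, and Pomc, from 804 and 811 to 1588 and 1606. Tac2 is also a gene of the medial habenula, a small nucleus next to the thalamus. The 6 habenular markers summed to 9509 to 10151 on control and 9537 to 9917 on ΔFosB arrays, and 0 of 4 tested passed in limma, with Gpr151, Nhlh2 and Pou4f1 in the receptor range on all arrays. Most of each sum was Tac1, with 5479 and 6189 on control and 5632 and 6044 on ΔFosB arrays. Nhlh2, below the filter, went from 748 and 654 to 539 and 508, and passed as lower without a filter (limma adjusted p = 0.0319).

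The promoter of Tac2 is shown because Tac2 was 1 of the 2 genes that rose and ΔFosB acts through AP-1 sites. It is the RefSeq sequence of GRCm38.p6 at chr10:127724228-127724527, plus strand, from 250 bases before to 50 bases after the annotated start. Both strands were searched for the AP-1 motif TGANTCA, the cyclic AMP response element TGACGTCA and the STAT motif TTCNNNGAA, and matches are in capitals. Among 32851 RefSeq promoters of this length 7.81% held the AP-1 motif, 1.79% the cyclic AMP response element and 8.30% the STAT motif.
Tac2 promoter: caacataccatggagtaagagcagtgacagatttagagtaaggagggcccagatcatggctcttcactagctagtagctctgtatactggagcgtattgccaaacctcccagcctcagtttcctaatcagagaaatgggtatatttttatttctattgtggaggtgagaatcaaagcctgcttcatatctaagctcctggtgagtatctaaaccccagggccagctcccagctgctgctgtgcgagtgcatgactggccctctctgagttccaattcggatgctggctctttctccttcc
The Tac2 window held no match to any of these motifs, which says only that these letters are not in this window.

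The other peptide genes had smaller differences. Gnrh1, the gene of the decapeptide that commands gonadotropin release, had signals of 635 and 775 on control arrays A and B, and 845 and 864 on ΔFosB arrays A and B. Both control signals lay in the receptor range and both ΔFosB signals just above it. The log2 fold change was 0.28 (SE 0.10, 95% interval 0.06 to 0.51, limma adjusted p = 0.0903), and in the group means the gene was at least 1.03-fold higher with each control signal raised to at least 831. All 7 genes with a probe set of their own passed the filter on dim probe sets, a mean log2 signal of 9.49. Gnrh1 passed it through its ΔFosB arrays, since its control mean was 9.45 and its ΔFosB mean 9.74. Control array A was the lowest value, and the log2 fold change was 0.14 without it (adjusted p = 0.419) and 0.43 without control array B (adjusted p = 0.0246). The 6 markers of the preoptic and anteroventral periventricular area, near which most GnRH neurons lie, summed to 11382 to 13042 on control and 9706 to 10661 on ΔFosB arrays, with 1 of 5 tested risen (Gal) and 1 fallen (Th, which midbrain dopamine neurons also express). Without Th the direction turned, with sums of 4328 and 4807 on control and 6905 and 7700.5 on ΔFosB arrays. The GnRH receptor gene Gnrhr, whose product acts mainly in the pituitary, had signals of 668 and 569 on control and 803 and 671 on ΔFosB arrays, all in the receptor range, and lay below the filter.

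Npvf, the gene of the RFamide-related peptides made in the dorsomedial nucleus, had signals of 739 and 936 on control arrays A and B, and 1069 and 1009.5 on ΔFosB arrays A and B. Of these the signal on control array A was the only one in the receptor range, and it lay as far below control array B as the groups lay apart. The log2 fold change was 0.32 (SE 0.11, 95% interval 0.08 to 0.56, limma adjusted p = 0.0831). It was 0.15 without control array A (adjusted p = 0.403) and 0.49 without control array B (adjusted p = 0.0166). The 5 markers of the dorsomedial and ventromedial nuclei summed to 4105 to 4296 on control and 8026 to 9018.5 on ΔFosB arrays, and 3 of 4 tested rose. Of these 4, Fezf1 and Nr5a1 had control means below the filter and passed it through their ΔFosB arrays. The receptor gene Npffr1 rose, from 701 and 742 on control to 977 and 1018 on ΔFosB arrays, a log2 difference of 0.47 (SE 0.07, limma adjusted p = 0.00402). Both control values lay in the receptor range, and it was at least 1.20-fold higher.

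Prlh, the gene of prolactin-releasing peptide, had signals of 1830.5 and 1971 on control arrays A and B, and 2137 and 2173 on ΔFosB arrays A and B. All were above the receptor range and the groups did not overlap. The log2 fold change was 0.18 (SE 0.06, 95% interval 0.04 to 0.33, limma adjusted p = 0.0954), and 0.13 to 0.24 without each array in turn. Its receptor gene Prlhr passed the filter through its ΔFosB arrays, with mean log2 signals of 9.34 on control and 9.76 on ΔFosB arrays. Without a filter it also passed in limma (adjusted p = 0.029). Prlhr rose, from 634 and 658 to 943 and 802, with both control signals and ΔFosB array B in the receptor range. That log2 fold change was 0.43 (SE 0.09, limma adjusted p = 0.0172), at least 1.05-fold, and the call ended without control array A (adjusted p = 0.0917) or ΔFosB array A (adjusted p = 0.0655).

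Kiss1 cannot be read on its own from these arrays. Its probe set lists 2 gene identifiers, Kiss1 and its neighbour Golt1a, a gene of Golgi vesicle transport, and the annotated ranges of the pair overlap in RefSeq's GRCm38.p6. The signals of this shared probe set were 1155 and 1265 on control arrays A and B, and 1400 and 1323 on ΔFosB arrays A and B, higher on both. It was left out of the test over genes. With each of 25175 named probe sets tested on its own, the log2 fold change was 0.17 (SE 0.07, limma adjusted p = 0.193). In that fit 6.48% of all probe sets passed, and 2.91% of all were called higher on the ΔFosB arrays.

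Among the receptors, Kiss1r had signals of 1161 and 1125 on control arrays A and B, and 1102 and 1120 on ΔFosB arrays A and B. Both ΔFosB arrays were lower than both control arrays, but the gap between the groups was smaller than the difference between the control arrays. The log2 fold change was -0.04 (SE 0.06, limma adjusted p = 0.706), and the 95% interval of -0.19 to 0.10 spans fold changes from 0.879 to 1.07. Tacr3, the neurokinin B receptor gene, had signals of 1667 and 1709 on control arrays A and B, and 1660 and 1722 on ΔFosB arrays A and B, so that the groups overlapped. Its log2 fold change was 0.00 (0.002, SE 0.06, limma adjusted p = 0.984), with a 95% interval of -0.14 to 0.14, or fold changes of 0.910 to 1.10. A change in Tacr3 as large as that of its ligand gene Tac2, whose interval began at 0.45, lay outside this interval. Both receptor genes kept log2 fold changes between -0.08 and 0.03 under all alternatives run.

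**Figure D3:**
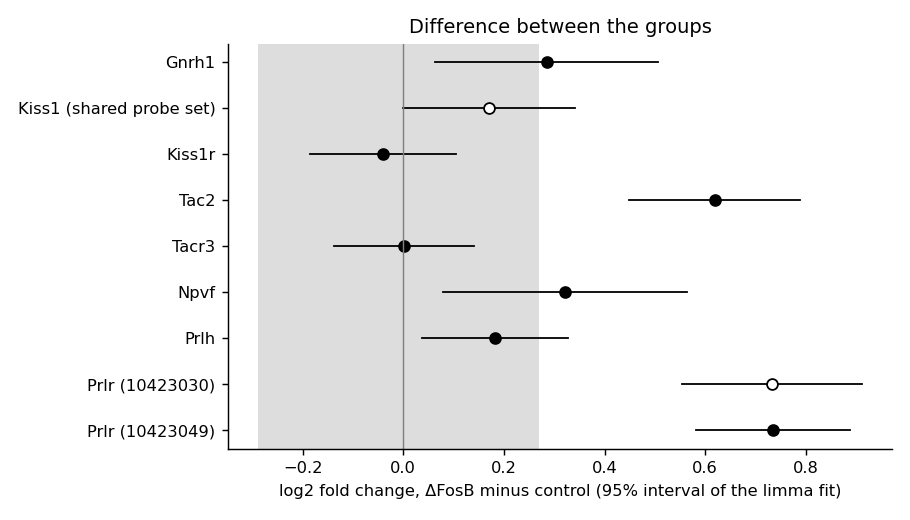
Log2 fold change of each probe set, ΔFosB minus control (horizontal axis), with the 95% interval of the limma fit as a line. Filled points come from the fit over 14520 genes and open points from the fit over 25175 probe sets, and the grey band spans the 5th to the 95th percentile of all genes tested (-0.29 to 0.27). Tac2 and both Prlr probe sets lie beyond the band with their whole intervals.

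Prlr encodes the prolactin receptor, whose long form carries the signal to Jak2 and Stat5. Its brighter probe set, 10423049, had signals of 789 and 838 on control arrays A and B, and 1346 and 1360 on ΔFosB arrays A and B. The control signals lay at the edge of the receptor range, 1 of them inside it, and both ΔFosB signals well above. The group means were 813 ± 34.8 and 1353 ± 10.6 (mean ± SD, n = 2). The log2 fold change was 0.74 (SE 0.07, 95% interval 0.58 to 0.89, limma adjusted p = 0.000389), and with each control signal raised to at least 831 Prlr was at least 1.62-fold higher. Of all genes tested 99.7% had a lower log2 fold change.

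The other Prlr probe set, 10423030, had signals of 679 and 726 on the control arrays, both in the receptor range, and 1209 and 1126 on the ΔFosB arrays. Both probe sets therefore separated the groups in the same direction, although they were read from the same 4 arrays and are no independent replicates. The log2 fold change of the dimmer probe set was 0.73 (SE 0.08, limma adjusted p = 0.00185 over 25175 probe sets), and since its control signals were in the receptor range it was at least 1.40-fold higher. Without each array in turn the brighter probe set had log2 fold changes of 0.69 to 0.78 and adjusted p-values of 0.000207 to 0.00457, and the dimmer one 0.68 to 0.78 and 0.00211 to 0.0377.

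Prlr is also strongly expressed in the choroid plexus, the tissue that secretes cerebrospinal fluid. The 11 choroid plexus markers summed to 7885 to 9375 on control and 8827 to 9614.5 on ΔFosB arrays, so that the groups overlapped, and 3 of their 7 tested genes rose (Kl, Folr1 and Kcne2) and 0 fell. The median log2 fold change of the 7 was 0.27. Kl and Folr1 had control means below the filter and passed it through their ΔFosB arrays. Without a filter Kl and Kcne2 passed in limma (adjusted p = 0.0237 and 0.0368) and Folr1 did not (0.0679). Otx2, a choroid plexus marker below the filter, went the other way, from 825 and 873 on control to 433 and 409 on ΔFosB arrays. Kcnj13, Aqp1 and Slc4a5 lay in the receptor range on all arrays, and the signals of Ttr, the transthyretin gene, were 850 and 1806 on control and 848 and 1206 on ΔFosB arrays. This spread of Ttr within each group weighs on the summed signal, so that the overlap of the sums does not show equal choroid plexus signal. No sum without Ttr was made. By single genes, Kl, Clic6, Folr1, Kcne2, Kcnj13, Aqp1, Slc4a5 and Sostdc1 were each higher on both ΔFosB arrays than on either control array. Ttr and F5 overlapped between the groups, and Otx2 was lower. Of all genes tested, 34.7% were separated with ΔFosB higher. The 9 pituitary markers summed to 4963 to 5406 on control and 6895 to 7420 on ΔFosB arrays, and the 1 of 3 tested that rose was Pomc, which is also an arcuate gene. Without Pomc and Cga, the glycoprotein hormone subunit gene, the sums were 3728 and 4121 on control and 4516 and 4387 on ΔFosB arrays. Of that list Prl, Fshb, Tshb, Pitx1 and Pou1f1 were in the receptor range on all arrays. The part of choroid plexus or pituitary tissue in the Prlr result was not tested.

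The promoters of Prlr are shown because it had the largest increase of the 8 genes. RefSeq lists 3 starts in GRCm38.p6, all on the plus strand, at chr15:10176988-10177287, chr15:10223656-10223955 and chr15:10293401-10293700, each window running from 250 bases before to 50 bases after a start. Matches to the AP-1 and STAT motifs are in capitals.
Prlr promoter, first start: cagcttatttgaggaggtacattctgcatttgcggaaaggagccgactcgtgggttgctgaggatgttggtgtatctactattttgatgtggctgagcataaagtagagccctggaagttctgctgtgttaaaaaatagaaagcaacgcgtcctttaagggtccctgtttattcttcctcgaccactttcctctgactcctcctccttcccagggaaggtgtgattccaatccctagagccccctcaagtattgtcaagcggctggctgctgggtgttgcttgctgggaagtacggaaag
Prlr promoter, middle start: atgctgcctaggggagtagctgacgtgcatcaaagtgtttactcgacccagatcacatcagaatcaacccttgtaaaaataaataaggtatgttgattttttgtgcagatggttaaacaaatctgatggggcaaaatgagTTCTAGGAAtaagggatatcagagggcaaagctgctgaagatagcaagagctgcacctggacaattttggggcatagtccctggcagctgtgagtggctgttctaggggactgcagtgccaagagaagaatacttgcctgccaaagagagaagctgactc
Prlr promoter, last start: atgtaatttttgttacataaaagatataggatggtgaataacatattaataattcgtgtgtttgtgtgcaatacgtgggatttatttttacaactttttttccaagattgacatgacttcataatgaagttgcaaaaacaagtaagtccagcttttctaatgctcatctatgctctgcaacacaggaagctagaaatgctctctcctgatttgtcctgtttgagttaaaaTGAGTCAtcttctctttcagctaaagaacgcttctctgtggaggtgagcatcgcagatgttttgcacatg
The last window held 1 AP-1 match, TGAGTCA, whose first base lies 20 bases before the start. The middle window held 1 STAT match, TTCTAGGAA, which begins 110 bases before the start, and the first window held neither. Of the 9 promoters that RefSeq lists for 7 of the 8 genes, these were the only ones with an AP-1 or a STAT match, 1 each. Which of these starts the hypothalamus uses was not measured by the arrays, and a match is no evidence of binding.

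**Figure D4:**
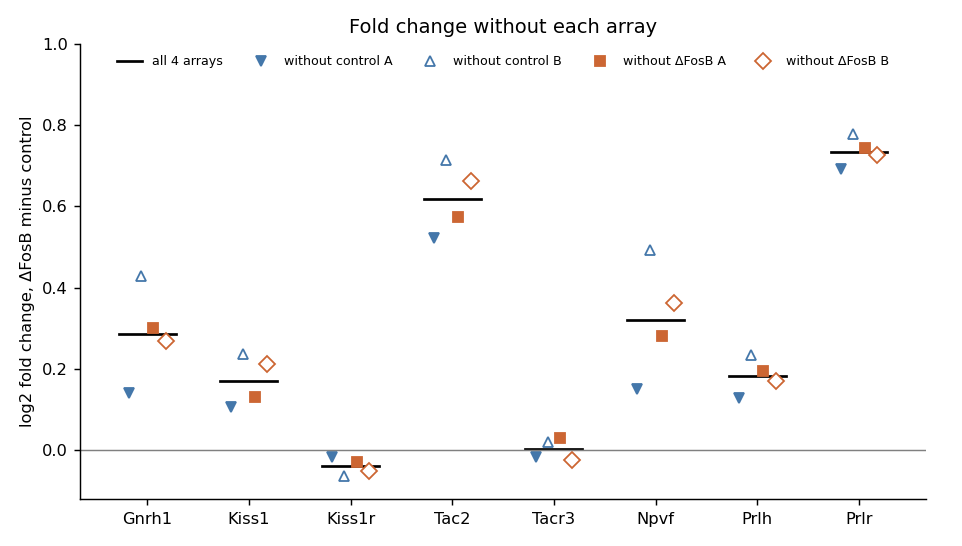
Log2 fold change of each gene (vertical axis) with all 4 arrays (black bars) and without each array in turn (symbols), from the fit over single probe sets for Kiss1 and the fit over genes for the others. Without control array A the values of Gnrh1 and Npvf fall to 0.14 and 0.15, while those of Tac2 and Prlr stay at 0.52 or above without any 1 array.

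Other genes of the same pathways were counted from 3 lists, which were written with earlier results of these data known. Of all genes tested 6.18% were called higher and 6.91% lower. Of 14 tested genes of the gonadotropin axis, 9 rose, 0 fell and 5 did not pass, with a median log2 fold change of 0.42 against 0.02 in all genes, and of 0.31 with the 4 genes of dim control level at their lower bounds. Pdyn, the dynorphin gene, rose from 531 and 577 to 1464 and 1576, a log2 difference of 1.46 (SE 0.08, limma adjusted p = 3.19e-05). It was at least 1.83-fold higher given control levels under 831. Which cells its signal came from was not measured. Pdyn passed the filter through its ΔFosB arrays, with mean log2 signals of 9.11 on control and 10.57 on ΔFosB arrays. Its call held without a filter (limma adjusted p = 5.67e-05). Esr1, the oestrogen receptor alpha gene, rose from 805 and 902 to 1322 and 1466, a log2 difference of 0.71 (SE 0.08). Mc4r, a melanocortin receptor gene, rose by 0.69 (SE 0.08). Galr1, Tacr1 and Oprk1, named after their values were seen, were also among the genes that rose, as were Npffr1 and Prlhr. Oprk1, the dynorphin receptor gene, had a log2 difference of 0.41 (SE 0.07). Vipr2 (-0.15, SE 0.16), Tac1 (0.00, SE 0.07) and Nos1 (0.11, SE 0.11) had the lowest statistics and did not pass. In this list 2 tested genes, Pdyn and Prlhr, had a control mean below the filter and 8 more genes lay below it altogether. Fitted without a filter, 2 of these passed, Npffr2 (0.46, SE 0.11, limma adjusted p = 0.0339) and Cga (1.27, SE 0.15, adjusted p = 0.00205). Npffr2 lay in the receptor range on every array and Cga on both control arrays, which makes Cga at least 1.31-fold higher. In that fit 8.09% of 21265 genes passed, made up of 3.90% higher and 4.19% lower.

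Of 20 tested genes of prolactin signalling and of the dopamine neurons that hold prolactin secretion down, 3 rose, 5 fell and 12 did not pass. Among all genes 6.18% rose and 6.91% fell. The median log2 fold change of the list was -0.01. The genes that fell were those of dopamine synthesis, storage, uptake and reception: Slc6a3, Slc18a2, Th and, named after their values were seen, Ddc and Drd2. Slc6a3, the dopamine transporter gene, had a log2 difference of -3.59 (SE 0.11, limma adjusted p = 1.38e-06) and was at least 10.8-fold lower, and Th, the gene of the rate-limiting enzyme of dopamine synthesis, had -1.39 (SE 0.11). These genes are shared by the tuberoinfundibular and the midbrain dopamine neurons, whose shares in the signal were not separated here. Drd2 had a log2 difference of -0.30 (SE 0.06), and its call ended without control array A (adjusted p = 0.103) or ΔFosB array B (adjusted p = 0.0534). Among the signalling genes downstream of Prlr, Stat5b rose by 0.34 (SE 0.06, limma adjusted p = 0.00613) and the feedback inhibitor gene Socs3 by 0.28 (SE 0.07, adjusted p = 0.0315), the latter not without control array A (adjusted p = 0.204) or either ΔFosB array. The Socs3 call ended in 7 of 13 alternatives, among them the mean of its probe sets (0.19, adjusted p = 0.0951). Ghr, the growth hormone receptor gene, which uses the same kinase, rose by 0.52 (SE 0.07). Jak2 had signals of 3278 and 3416 on control and 3250 and 3379 on ΔFosB arrays, and Stat5a had a log2 difference of 0.04 (SE 0.07). Cish, a STAT5 target gene in the receptor range on every array, had -0.01 (SE 0.08), and these 3 genes were chosen after their values were seen. Prl itself had signals of 514 and 540 on control and 564 on both ΔFosB arrays, all in the receptor range.

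Of 22 tested genes of puberty timing and of GnRH neuron development, 5 rose, 0 fell and 17 did not pass. Among all genes 6.18% rose and 6.91% fell. The median log2 fold change of the list was 0.11. Prokr2, a prokineticin receptor gene needed for GnRH neurons to reach the brain, rose by 0.37 (SE 0.06, limma adjusted p = 0.0074). The homeobox genes Six6 and Six3 rose by 0.37 (SE 0.07) and 0.33 (SE 0.08), the latter not without control array A (adjusted p = 0.163), control array B (0.0575) or ΔFosB array A (0.0942). Six6 had a control mean log2 signal of 9.45, below the filter, and passed it through its ΔFosB arrays. Without a filter it also passed in limma (adjusted p = 0.0206). Both control signals of Six6 lay in the receptor range, and it was at least 1.09-fold higher. The others were Fgfr1 (0.24, SE 0.07) and Dlk1 (0.21, SE 0.06), named after their values were seen, with adjusted p-values of 0.0469 and 0.0458. The call of either ended without control array A, control array B or ΔFosB array B, where adjusted p-values ran from 0.109 to 0.215, and in 7 of 13 alternatives in all. Hs6st1 (-0.25, SE 0.08), Nrp1 (-0.13, SE 0.07) and Gli3 (-0.12, SE 0.07) had the lowest statistics and did not pass. Hs6st1 was -0.15 without control array A and passed as lower without control array B (-0.35, limma adjusted p = 0.0398), and Nrp1 ran from -0.05 to -0.20 over left-out arrays. Fitted without a filter, the homeobox gene Otx2 fell by 1.01 (SE 0.09, limma adjusted p = 0.000366), from 825 and 873 to 433 and 409, at least 1.02-fold lower given ΔFosB signals in the receptor range. It too was chosen after its values were seen.

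**Figure D5:**
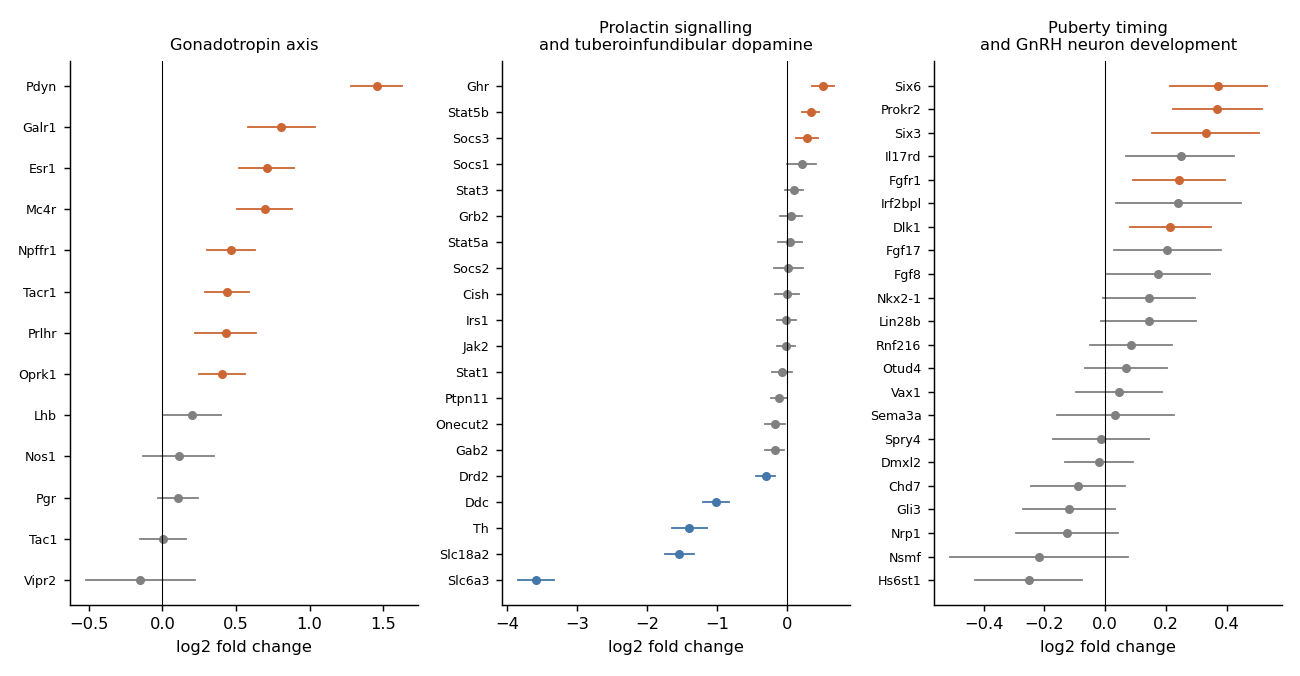
Log2 fold change, ΔFosB minus control, of tested genes of the 3 pathway lists (horizontal axis, a different range in each panel), with 95% intervals of the limma fit as lines. Orange genes rose, blue genes fell and grey genes did not pass. The genes that fell all belong to the prolactin and dopamine list.

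Genes whose pattern over the 4 arrays lay closest to that of Tac2 and Prlr were found by the root mean square difference of log2 signals, each centred on its own mean, among 14520 genes. For Tac2 these were Ak7 (0.0205), Dlx5 (0.0248) and Defb1 (0.0259), with log2 fold changes of 0.63, 0.65 and 0.61. For Prlr they were Ankfn1 (0.0149), Syt10 (0.0182) and 4932411E22Rik (0.0241), with log2 fold changes of 0.76, 0.71 and 0.74. Of the genes closest to Tac2, Ak7 and Defb1 passed the filter through their ΔFosB arrays. Both control signals of each lay in the receptor range, so that Ak7 was at least 1.22-fold and Defb1 at least 1.08-fold higher. With 4 arrays in 2 groups this likeness is mostly a like difference between the groups.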

How the data were processed

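The authors deposited probe set intensities on a linear scale, 1 column per array, and per the submitters' processing notes they were made with MAS5, with no version given. The sources used here do not give scaling target, build or annotation release. The sheet and the series' value table held the same values (largest difference 0).

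Log2 values were taken with no pseudocount. Dim probe sets were dropped by keeping the upper 60% by mean log2 signal (signal 717 and above), and each gene was read from its brightest probe set with 1 gene identifier. Symbols were updated through a RefSeq table (GRCm38.p6) that held 21637 of 23015 such probe sets. Groups were compared with limma 3.58.1 in R 4.3.3 (lmFit and eBayes with trend), as ΔFosB minus control and with no block term. "At least" folds take, on each array of the dimmer group, the higher of the signal and 831, and leave the brighter group as measured. In simulated data for this comparison of 14520 genes, 78% of 50 genes changed 1.25-fold and 100% of those changed 1.5-fold were called, with 15 false calls. The noise was drawn independently for each array from limma's moderated variances, without the correlation between arrays of the same letter. The changed genes were drawn at random, so these shares do not hold for single genes with a larger SE, such as Gnrh1 and Npvf.

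The members, lists and tests were chosen with earlier results of these data known. Named genes are the members, their ligand or receptor partners, Fosb, Eno2, up to 3 genes with the highest and 3 with the lowest statistic of each pathway list, and the 3 closest patterns of each member that passed. For Eno2 the log2 difference was -0.05 (SE 0.04, adjusted p = 0.418). Alternatives were quantile normalization, a pseudocount of 64, no filter, a filter at 831, no trend, an unmoderated test, probe sets averaged or taken singly, the array letter as a block, and leaving out each array. The fits of single probe sets under these alternatives, marker sums without single genes and medians at lower bounds were added after the data were seen. Counts over the gonadotropin list include 1 gene that is not reported here or plotted. Tables were made in pandas 2.3.3 with numpy 2.4.6 under Python 3.11.15, and plots in matplotlib 3.10.9.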

Additional observations from a re-analysis of the deposited data

How the results depend on the processing

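Tac2 and Prlr kept their direction and their call under all 13 alternatives except the unmoderated test (adjusted p = 0.236 and 0.177). That test, which shares no variance between genes, called 0 of all genes, 0 of the members and 0 of the pathway genes, with 2690 genes and 2 members at an unadjusted p under 0.05. Leaving out each array gave 702 to 1697 genes past the threshold (1902 with all), 2 to 4 members and 16 to 20 pathway genes (22 with all). The lowest gene count came without control replicate A. The 4 members came without control replicate B, where Gnrh1 and Npvf passed. Arrays of the same letter are not stated to be paired. Their deviations from the group means correlated at 0.242 across 14520 genes, and with the letter as a replicate block 3824 genes and 5 members passed, Gnrh1 (adjusted p = 0.0135), Npvf (0.00584) and Prlh (0.0296) besides Tac2 and Prlr, and Hs6st1 passed as lower (0.00632). Differences near 0 changed sign: Tacr3 was -0.004 and Jak2 0.009 with quantile normalization. Without each array Tacr3 ran from -0.024 to 0.029, Jak2 from -0.044 to 0.016, Stat5a from -0.042 to 0.13, Vipr2 from -0.413 to 0.111, Tac1 from -0.085 to 0.091 and Nos1 from -0.07 to 0.29. The causes were not tested. The Fosb call (log2 fold change 0.52, adjusted p = 0.0389) ended in 7 of 13 alternatives. Fgfr1 and Dlk1 did not pass without a filter (0.0536 and 0.0586), without a trend (0.0586 and 0.0757) or as single probe sets (0.0681 and 0.0732), nor Socs3 with quantile normalization (0.05004) or as single probe sets (0.0589). Signals near 831 limit what can be said of Gnrh1, Npvf, Npffr1, Prlhr and the control level of Prlr.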
